A study of Ovis aries with 9 samples.

Results

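The genes of the intermediate filament and lamin network were followed in fetal sheep muscle. They encode desmin (DES), vimentin (VIM), nestin (NES), synemin (SYNM), syncoilin (SYNC), the filament linker plectin (PLEC) and the lamins (LMNA, LMNB1 and LMNB2). The genes were chosen by name, and all 9 of the 9 names were found among the 22605 loci of the expression table. A single locus carried each of them. For 8 the deposited name itself matched, and PLEC was matched through its RefSeq gene number, because its locus carries only a LOC number. The LMNA locus is joined with an uncharacterised neighbour, LOC105615926, so reads of these 2 genes cannot be told apart.

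RNA was sequenced from the longissimus dorsi, a long back muscle, of Chinese merino sheep fetuses at pregnancy days 85, 105 and 135, written D85, D105 and D135. Each day has 3 libraries, no animal carries a treatment or an allele in the labels, and the age is the only labelled difference between the groups. Whether same-day libraries stem from different fetuses is not in the labels, so all p-values here refer to library-to-library spread, part of which may be technical. The values are FPKM, fragments scaled to transcript length and to the mapped fragments of a library. Read depth is unknown, since the table holds no counts. Low values put the depth of the libraries at 0.994 to 1.2 times that of D85 replicate 1. This estimate differed by day. It was 1.12, 1.19 and 1.2 in D135 replicates 1, 2 and 3, against at most 1.07 on the earlier days. The D135 libraries also had more loci at 0 FPKM, 3196 to 3249 against at most 3068. In each library the top 4 unnamed loci held 49.4% to 59.96% of the summed FPKM, and the days overlapped. The part of these differences in the D135 results was not tested.

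Intermediate filaments are rope-like polymers that give cells mechanical strength. In muscle, vimentin and nestin are known from immature cells, and desmin is the main filament protein of the mature fibre, where it ties the Z-discs of neighbouring myofibrils to each other, to the membrane and to the nucleus. Synemin and syncoilin join desmin to the dystrophin-associated complex at the membrane, and plectin crosslinks filaments to their anchors. Lamins are the intermediate filaments of the nucleus: B-type lamins stay farnesylated and attached to the inner nuclear membrane, and A-type lamins, made from LMNA, are known to increase as tissues stiffen and cells differentiate.

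The tissue label was checked against marker genes. The summed FPKM of 6 muscle fibre markers ran from 6486 to 9131 at D85, from 8427 to 11441 at D105 and from 16251 to 19992 at D135. The summed level of 6 proliferation markers lay between 69.1 and 84.0 at D85, between 63.0 and 65.5 at D105 and between 18.8 and 24.4 at D135. D105 replicate 2 stood apart from the other D105 libraries. Its 6 fibroblast markers summed to 4039 FPKM against 1849 and 1859, and its 5 tendon and cartilage markers to 320 against 10.99 and 16.3. In bulk tissue, fewer cells of a type and less RNA per cell cannot be told apart.

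The 2 B-type lamin genes and nestin were lower at D135 than on both earlier days, and synemin was higher at D135 than at D85. Desmin, vimentin and LMNA passed no test between days on the deposited scale with all libraries. The genes were tested with limma on log2(FPKM + 1), and a gene was called at a Benjamini-Hochberg adjusted p under 0.05 over 13086 loci. A fold change on this scale understates that of a low gene. Between D85 and D105, 0 of the 9 genes were called by limma, where 0.199% of all tested loci were (0.145% higher and 0.0535% lower). An unadjusted limma p under 0.05 was found for 2 of 9 genes there, and for 1611 of the 13086 loci. Between D105 and D135, 3 of 9 were called, all lower at D135 (NES, LMNB1 and LMNB2). Of all tested loci 39.5% were called in that comparison, 4.47% higher and 35.0% lower, so 3 of 9 lower is near the background. Between D85 and D135, 6 of 9 were called, 2 higher (SYNM and PLEC) and 4 lower (NES, SYNC, LMNB1 and LMNB2). The share over all loci was 46.6%, with 6.90% higher and 39.7% lower, so the count of 4 lower is near it too. Over the 3 days at once, the moderated F test of limma called 5 of 9 genes (NES, SYNM, SYNC, LMNB1 and LMNB2), where 43.2% of all loci were called.

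The scale of the D135 libraries bears on each direction given here. Over all tested loci the median log2 change was -0.33 in D135 against D105 and -0.35 in D135 against D85, beside -0.02 in D105 against D85. The median over the 9 genes was -0.21, -0.20 and 0.00 in the same order. Median-of-ratios scaling, which rescales each library so that its typical locus sits level with the others, brought the median over all loci to 0.02 and 0.01. It also moved the calls of D135 against D105 over all loci from 585 higher and 4579 lower to 1408 higher and 900 lower. For D135 against D85 they moved from 903 higher and 5194 lower to 1987 and 1616. Under that scaling 2 of the 9 genes were higher and 2 lower in D135 against D105, beside 10.9% and 6.94% of all loci. In D135 against D85, 3 were higher and 3 lower, beside 15.3% and 12.5%. Quantile normalization, which gives all libraries the same distribution, left 0 higher and 2 lower in D135 against D105 (7.53% and 8.19% of all loci). In D135 against D85 it left 2 higher and 3 lower (12.2% and 14.8%).

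**Figure D1:**
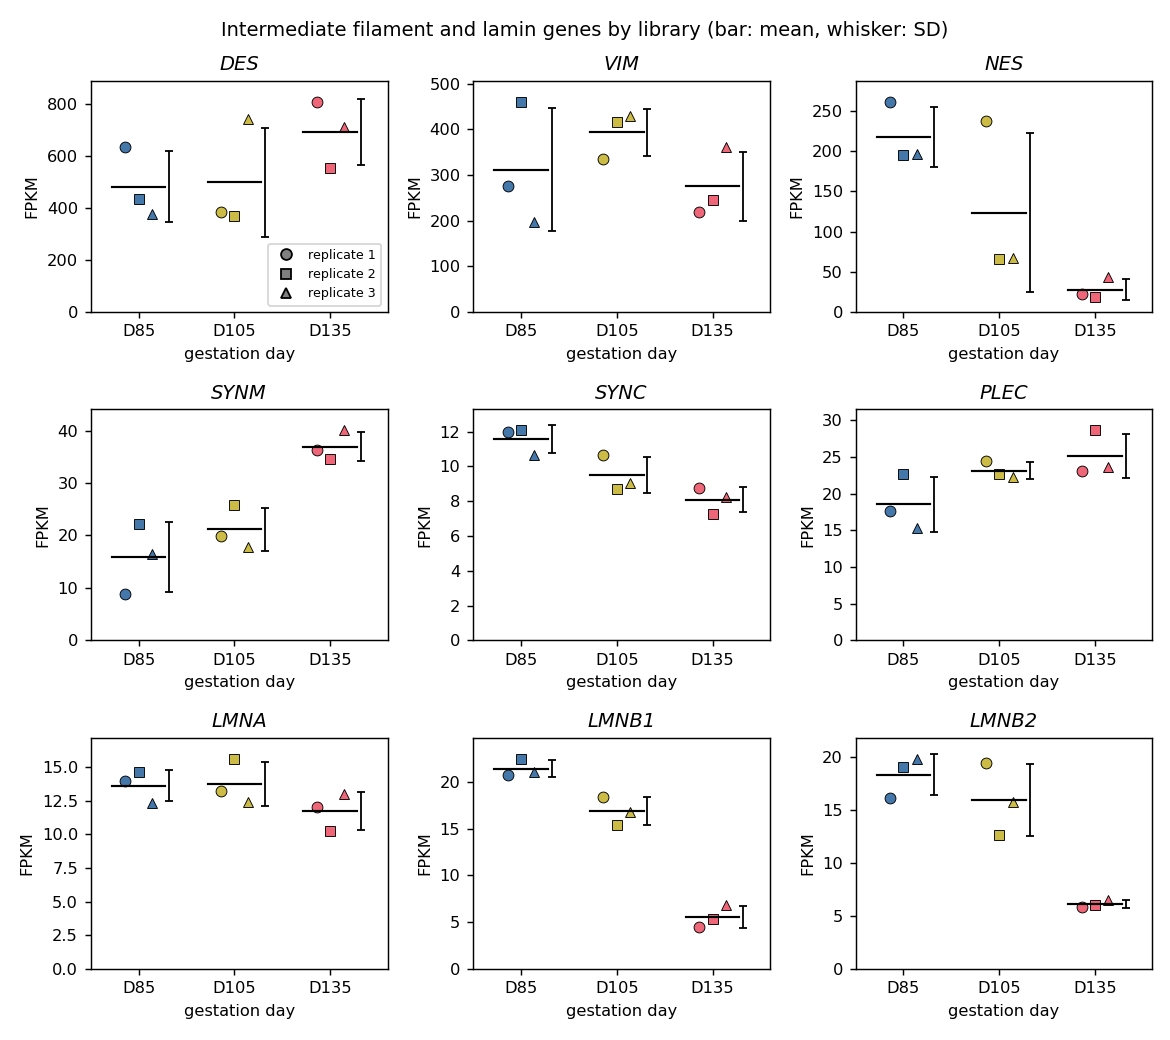
FPKM of the 9 genes in each library by gestation day, with a panel per gene and its own axis from 0; the horizontal bar is the mean of 3 libraries and the whisker the SD. LMNB1 and LMNB2 lie at 4.49 to 6.84 FPKM in the D135 libraries and at 12.7 or more in all others, while DES and LMNA libraries of different days overlap.

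Desmin was the most abundant of the 9 genes on each day by its mean, and its level varied widely within a day. DES stood at 635, 435 and 375 FPKM in D85 replicates 1, 2 and 3, at 383, 368 and 741 FPKM in the D105 libraries and at 807, 555 and 709 FPKM in the D135 libraries. The D135 range overlapped both earlier ranges, and D105 replicate 3 was about double its D105 neighbours. The means were 482 ± 136, 497 ± 211 and 690 ± 127 FPKM (SD, n = 3 each). The log2 difference was 0.53 in D135 against D105 (SE 0.31, limma adjusted p = 0.209) and 0.54 in D135 against D85 (adjusted p = 0.194). With median-of-ratios scaling the second difference became 1.01 and was called (limma adjusted p = 0.0423). Without D105 replicate 3 the first became 0.86 and was called (limma adjusted p = 0.0419).

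Vimentin, the filament of mesenchymal and immature cells, came next in level at D85, D105 and D135. VIM stood at 277, 460 and 197 FPKM at D85, at 334, 416 and 429 FPKM at D105 and at 218, 246 and 361 FPKM at D135. The D85 libraries held both the lowest and the highest value, and all days overlapped. The means were 311 ± 135, 393 ± 51.4 and 275 ± 76.0 FPKM (SD, n = 3), highest at D105. VIM was -0.54 in D135 against D105 on the log2 scale (limma adjusted p = 0.206), and its difference of -0.12 in D135 against D85 turned to 0.35 with median-of-ratios scaling. The fibroblast marker sums, 1436 to 2253 FPKM at D85 and 1037 to 1897 at D135, likewise overlapped between those days. In D105 replicate 2, the library with the highest fibroblast sum, COL1A1 alone held 1889 FPKM, against 403 and 419 in D105 replicates 1 and 3. The part of fibroblasts in the VIM values was not tested.

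Nestin, a filament protein of progenitors, regenerating fibres and neuromuscular junctions that copolymerises with vimentin or desmin, showed the widest fold range of the 9 genes. NES stood at 261, 196 and 196 FPKM at D85. At D105 replicate 1 held 238 FPKM, within the D85 range, and replicates 2 and 3 held 66.0 and 66.5 FPKM. At D135 the libraries held 22.0, 18.2 and 43.0 FPKM, below all libraries of the other days. The means were 218 ± 37.7, 123 ± 99.1 and 27.7 ± 13.3 FPKM (SD, n = 3). NES was 7.86-fold lower at D135 than at D85 by the means, a log2 change of -3.01 (SE 0.52, limma adjusted p = 0.00258). This call held with each library left out and under the other scalings. The change of -1.93 from D105 to D135 (SE 0.52, limma adjusted p = 0.0205) was less firm: median-of-ratios scaling gave -1.48 with an adjusted p of 0.0900, and quantile normalization an adjusted p of 0.0507. Without D135 replicate 1 or 2 the limma adjusted p was 0.0573 or 0.0704. Without D105 replicate 1 the change shrank to -1.32 (limma adjusted p = 0.0283). The D105 mean of NES therefore rests on 1 library. In D105 against D85 the log2 difference was -1.08 (limma adjusted p = 0.449), ranging from -1.69 to -0.77 with a library left out. Markers of myogenic progenitors, of which 4 of 5 were found, summed to 20.2 to 37.5 FPKM at D85, 13.6 to 40.2 at D105 and 11.8 to 14.5 at D135. Of these 4, 3 were lower at D135 than at D85 on the deposited scale, beside 39.7% of all loci. With median-of-ratios scaling 1 of 4 was lower, and with quantile normalization also 1 (12.5% and 14.8% of all loci). In D105 replicates 1, 2 and 3 the progenitor sums were 22.2, 13.6 and 40.2 FPKM. The largest parts of the sum in replicate 3 were the markers MYOG and MYF5, and the marker PAX7 held 2.19, 1.53 and 2.19 FPKM. The part of progenitor cells in the NES change, or in its spread within D105, was not tested.

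Relative to all loci, NES moved from above 99% of the tested loci at D85 to above 94.3% at D135. DES was above 99.6%, 99.5% and 99.7% of loci at D85, D105 and D135. The 5 cytoplasmic filament genes DES, VIM, NES, SYNM and SYNC summed to 1038 ± 213 FPKM at D85, 1045 ± 196 at D105 and 1038 ± 158 at D135 (SD, n = 3). Within that sum, NES made up 21.3% ± 3.66, 12.3% ± 10.3 and 2.61% ± 0.945. DES made up 46.3% ± 7.30, 46.4% ± 10.7 and 66.5% ± 6.66, and each D135 library lay above all 6 earlier ones, at 73.9%, 64.4% and 61.0% against at most 58.7%. VIM made up 29.6%, 38.3% and 26.6% by the means. A single scaling factor per library leaves these shares as they are. They were not tested.

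**Figure D2:**
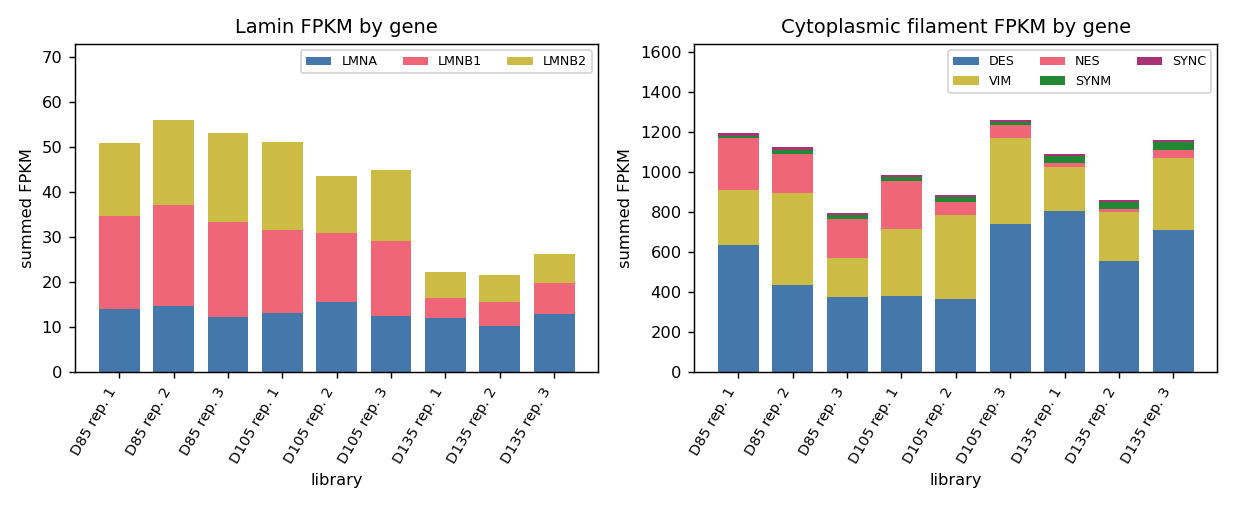
Stacked bars of summed FPKM in each library, for the 3 lamin genes (left) and for the 5 cytoplasmic filament genes (right). The lamin sum is 53.4 FPKM at D85 and 23.4 at D135 by the means, with the LMNA segment between 10.2 and 15.6 FPKM throughout, and in the cytoplasmic sum the NES segment is thin in all D135 libraries.

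The DES to VIM ratio, which sets the filament of the mature fibre against that of immature and mesenchymal cells, was 2.30, 0.946 and 1.90 in the D85 libraries. It was 1.15, 0.885 and 1.73 in the D105 libraries and 3.70, 2.25 and 1.96 in the D135 libraries. Each D135 library lay above each D105 library, and the D85 libraries spanned from the D105 range into the D135 range. The means were 1.71 ± 0.694, 1.25 ± 0.432 and 2.64 ± 0.930 (SD, n = 3). An exact permutation test over the 1680 ways of dividing the libraries gave p = 0.107 across days, also 0.107 after adjustment over the 2 ratios tested. The ratio was 2.10-fold higher at D135 than at D105 as a geometric mean (exact two-sided permutation p = 0.1, adjusted 0.15 over 6 pairs of days), and 0.1 is the smallest p that 3 against 3 libraries can give. In D135 against D85 it was 1.58-fold higher (exact permutation p = 0.3), and in D105 against D85 the log2 difference was -0.41 (exact permutation p = 0.4). None of these tests of the DES to VIM ratio passed the threshold. The libraries D85 replicate 2 and D105 replicate 2 held more VIM than DES.

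Synemin, a large filament protein that cannot form filaments alone and binds desmin or vimentin, rose between D85 and D135. SYNM stood at 8.90, 22.2 and 16.4 FPKM at D85, at 20.0, 25.7 and 17.7 FPKM at D105 and at 36.2, 34.6 and 40.0 FPKM at D135. The D135 libraries lay above all others, and the D85 and D105 libraries overlapped. The means were 15.8 ± 6.69, 21.1 ± 4.14 and 36.9 ± 2.80 FPKM (SD, n = 3). The D135 mean was 2.33-fold that of D85, a log2 change of 1.25 (SE 0.29, limma adjusted p = 0.00903) that was called with each library left out and under each scaling. From D105 to D135 the log2 difference was 0.79 (SE 0.29) and missed the threshold with a limma adjusted p of 0.0599. It was called with median-of-ratios scaling (1.24, limma adjusted p = 0.0213). It was also called in a fit of those 2 days alone (limma adjusted p = 0.0149) and without D85 replicate 1 or 2 (0.0132 and 0.0323), where only the estimate of the spread differs. Of 6 muscle fibre markers, 5 were higher at D135 than at D85 on the deposited scale, beside 6.90% of all loci. With median-of-ratios scaling 6 were higher (15.3% of all loci). With quantile normalization 4 were higher and 1 lower (12.2% and 14.8%). The part of these markers in the SYNM result was not tested.

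Syncoilin, which binds alpha-dystrobrevin at the muscle membrane, had the lowest mean of the cytoplasmic genes on each day. SYNC stood at 12.0, 12.1 and 10.7 FPKM at D85, at 10.7, 8.71 and 9.07 FPKM at D105 and at 8.73, 7.28 and 8.25 FPKM at D135. The D135 libraries lay below those of D85 and overlapped those of D105. SYNC fell from 11.6 ± 0.784 to 8.09 ± 0.738 FPKM (SD, n = 3) between D85 and D135, a log2 change of -0.47 (SE 0.11, limma adjusted p = 0.00903). That call depended on the scale: the change was -0.04 with median-of-ratios scaling (limma adjusted p = 0.797) and -0.13 with quantile normalization (0.374). The ratio of SYNM to SYNC, which a single factor per library cannot move, was 1.37 at D85, 2.26 at D105 and 4.58 at D135 by the means. It was 4.15 to 4.85 in the D135 libraries against at most 2.95 in the others.

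Plectin, the linker between filaments and Z-discs, membrane and nucleus, differed little between days on the deposited scale. PLEC stood at 17.7, 22.6 and 15.3 FPKM at D85, at 24.4, 22.7 and 22.3 FPKM at D105 and at 23.2, 28.6 and 23.6 FPKM at D135. D85 replicate 2 lay within the D105 range, and D135 lay just above D85. The means were 18.5 ± 3.74, 23.2 ± 1.13 and 25.1 ± 3.04 FPKM (SD, n = 3). The D135 level was higher than that of D85 with a log2 change of 0.43 (SE 0.15, limma adjusted p = 0.0436). This was the weakest of the 6 calls on the deposited scale. It was lost in 8 of 9 fits with a library left out, with a limma adjusted p of up to 0.136 without D135 replicate 2. It was also lost without the filter on low values (0.0565) and in a fit of the 2 days alone (0.0806). It held under both other scalings with larger changes. These were 0.88 with median-of-ratios scaling (limma adjusted p = 0.00304) and 0.65 with quantile normalization (limma adjusted p = 0.0121). With median-of-ratios scaling PLEC was higher at D135 than at D105 too (0.55, limma adjusted p = 0.0335).

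**Figure D3:**
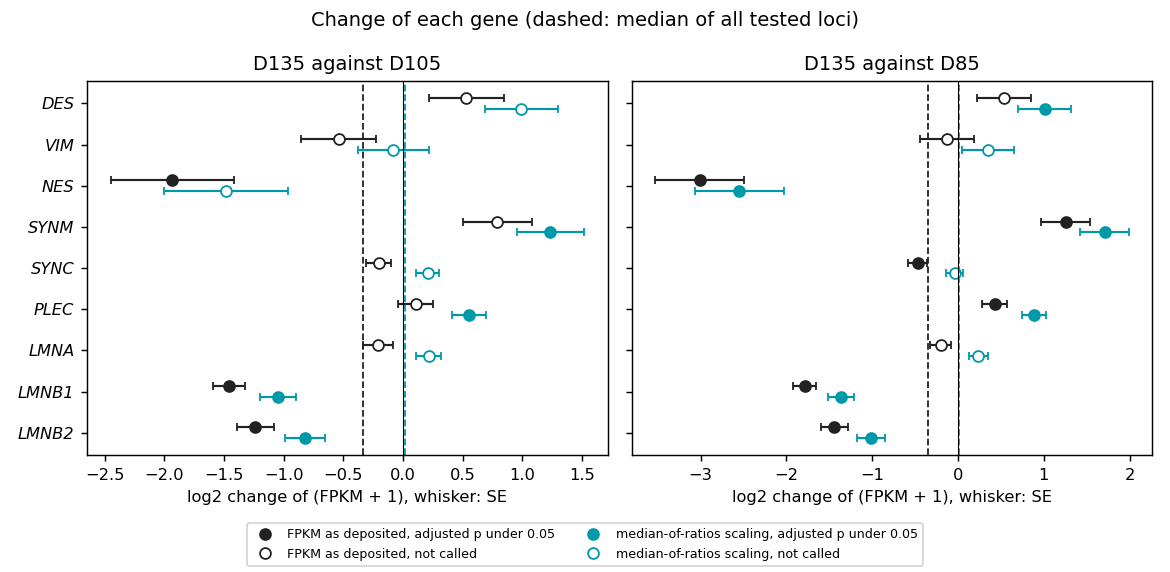
Log2 change of FPKM + 1 for each gene in D135 against D105 (left) and D135 against D85 (right), with SE whiskers, for deposited FPKM (black) and after median-of-ratios scaling (teal). Filled points have an adjusted p under 0.05, and dashed lines mark the median of all tested loci, -0.33 and -0.35 for deposited FPKM. LMNB1 and LMNB2 are filled and left of the median under both scalings, and LMNA crosses 0 between them.

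The B-type lamin genes had the smallest adjusted p-values of the 9 genes in both comparisons with D135. LMNB1 stood at 20.8, 22.5 and 21.1 FPKM at D85, at 18.4, 15.4 and 16.8 FPKM at D105 and at 4.49, 5.35 and 6.84 FPKM at D135. The 3 days did not overlap, and the lowest D105 library held more than double the highest D135 library. The means were 21.4 ± 0.902, 16.8 ± 1.49 and 5.56 ± 1.19 FPKM (SD, n = 3). LMNB1 fell 3.03-fold from D105 to D135, a log2 change of -1.46 (SE 0.14, limma adjusted p = 0.000837). It was 3.86-fold lower at D135 than at D85, with a log2 change of -1.79 (SE 0.14, limma adjusted p = 0.000157). From D85 to D105 the log2 difference was -0.33 and was not called (limma adjusted p = 0.378, unadjusted p = 0.0406). In relative terms LMNB1 lay above 90.4% of tested loci at D85 and above 64.4% at D135.

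LMNB2 encodes the other B-type lamin. It stood at 16.2, 19.1 and 19.9 FPKM at D85, at 19.5, 12.7 and 15.7 FPKM at D105 and at 5.83, 6.004 and 6.51 FPKM at D135. D85 and D105 overlapped, and the D135 libraries lay close together below both. The means were 18.4 ± 1.94, 16.0 ± 3.43 and 6.12 ± 0.355 FPKM (SD, n = 3). LMNB2 fell 2.61-fold from D105 to D135 (log2 change -1.24, SE 0.15, limma adjusted p = 0.00151) and was 3.002-fold lower at D135 than at D85 (log2 change -1.44, SE 0.15, limma adjusted p = 0.000381). Both B-type lamin genes kept their D135 calls under each scaling and in all 9 fits with a library left out. For D135 against D105, LMNB1 was -1.05 and LMNB2 -0.82 with median-of-ratios scaling, and without D105 replicate 2 they were -1.52 and -1.38. The 2 genes stayed near each other in level: the LMNB2 to LMNB1 ratio was 0.856 at D85, 0.941 at D105 and 1.12 at D135 by the means.

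LMNA, the source of lamins A and C, changed far less than the B-type genes. It stood at 14.0, 14.6 and 12.3 FPKM at D85, at 13.2, 15.6 and 12.4 FPKM at D105 and at 12.0, 10.2 and 12.99 FPKM at D135. The 3 days overlapped. The means were 13.6 ± 1.18, 13.8 ± 1.67 and 11.8 ± 1.39 FPKM (SD, n = 3). The log2 difference of -0.20 in D135 against D85 (SE 0.12, limma adjusted p = 0.215) turned to 0.24 with median-of-ratios scaling and 0.11 with quantile normalization, so its direction depended on the scale. No alternative that was run called it.

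The ratio of LMNA to LMNB1 within a library does not change with a single scaling factor for that library. It was 0.673, 0.651 and 0.585 in the D85 libraries, 0.722, 1.02 and 0.739 in the D105 libraries and 2.68, 1.91 and 1.90 in the D135 libraries. LMNB1 exceeded LMNA in all D85 and D105 libraries except D105 replicate 2, where the values were nearly equal, and LMNA was 1.90-fold or more above LMNB1 in each D135 library. The means were 0.636 ± 0.0459, 0.826 ± 0.166 and 2.16 ± 0.445 (SD, n = 3). The exact permutation test across days gave p = 0.00357, the smallest that 9 libraries in 3 groups of 3 can give (adjusted 0.00714 over the 2 ratios). The ratio was 2.62-fold higher at D135 than at D105 and 3.36-fold higher than at D85 as geometric means. For each pair of days the exact two-sided permutation p was 0.1, the smallest 3 against 3 can give (adjusted 0.15 over 6 pairs). D105 against D85, at 1.28-fold, also did not overlap. Without D105 replicate 2 the test across days gave an exact permutation p of 0.00714, and the log2 difference of D105 against D85 shrank from 0.36 to 0.20.

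**Figure D4:**
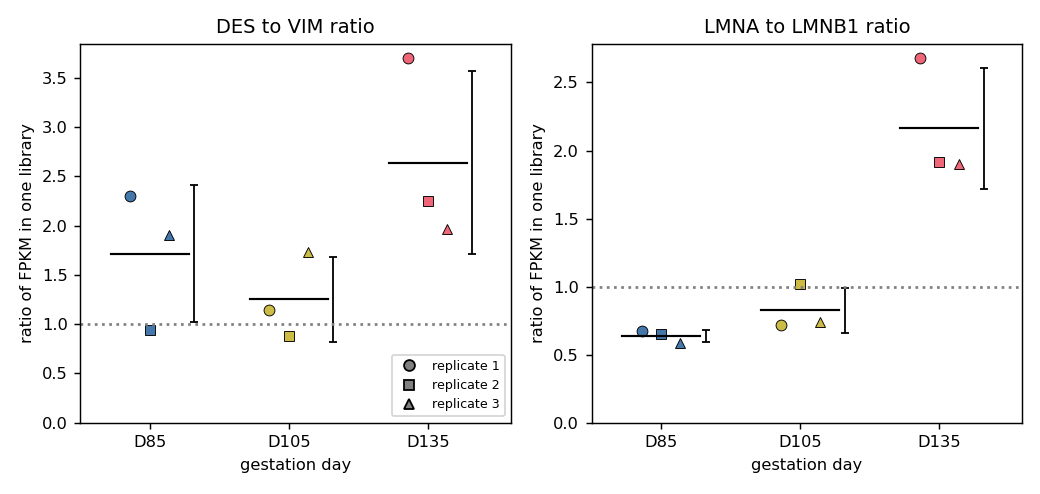
The DES to VIM ratio (left) and the LMNA to LMNB1 ratio (right) in each library by gestation day, with the mean (bar) and SD (whisker) of 3 libraries and a dotted line at equal FPKM. The D135 libraries lie at 1.90 to 2.68 for LMNA to LMNB1 against at most 1.02 on the other days, while the DES to VIM ratios of D85 and D135 overlap.

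The 3 lamin genes together summed to 53.4 ± 2.62 FPKM at D85, 46.6 ± 3.98 at D105 and 23.4 ± 2.55 at D135 (SD, n = 3). LMNA made up 25.5% ± 2.19, 29.8% ± 5.28 and 50.2% ± 3.27 of that sum. LMNB1 made up 40.1%, 36.2% and 23.6%, and LMNB2 34.3%, 34.1% and 26.2%. The LMNA share was 47.4% to 53.8% in the D135 libraries against at most 35.8% in all others, and the shares were not tested on their own.

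The B-type lamin genes and the proliferation markers were both lower at D135. All 6 of these markers (MKI67, TOP2A, CDK1, CCNB1, BUB1 and MCM7) were lower at D135 than at D105 and at D85 under each of the 3 scalings. Their median log2 change was -1.25 and -1.61 on the deposited scale, beside -0.33 and -0.35 over all loci. Of all loci 35.0% and 39.7% were lower on that scale. The lower shares were 6.94% and 12.5% with median-of-ratios scaling, and 8.19% and 14.8% with quantile normalization. Between D85 and D105, 0 of the 6 were called by limma, beside 0.199% of all loci. The part of dividing cells in the LMNB1 and LMNB2 changes was not tested.

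**Figure D5:**
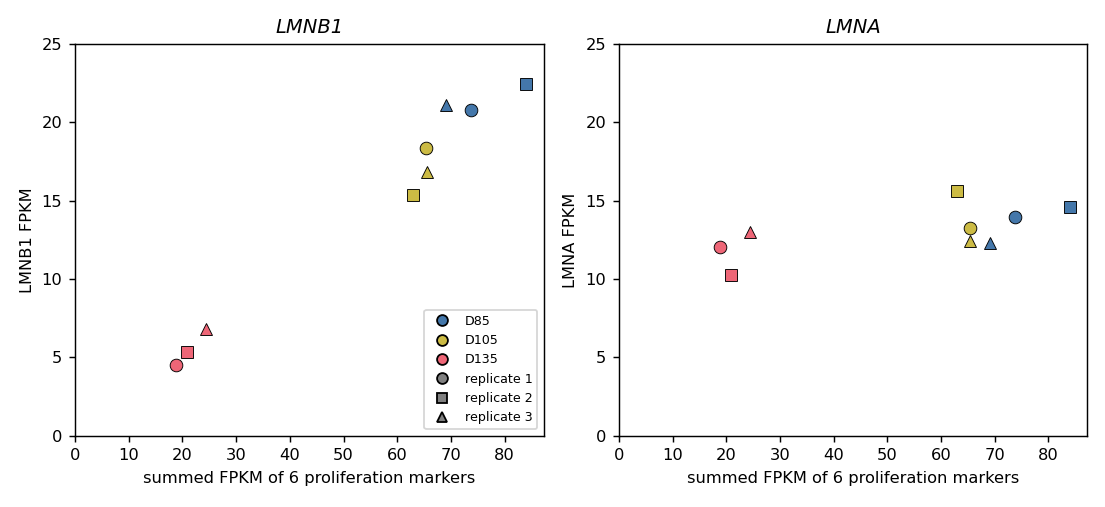
LMNB1 (left) and LMNA (right) in FPKM against the summed FPKM of 6 proliferation markers in each of the 9 libraries, coloured by day and shaped by replicate. The D135 libraries sit apart at sums of 18.8 to 24.4 and LMNB1 values of 4.49 to 6.84 FPKM, whereas LMNA lies between 10.2 and 15.6 FPKM at both ends of the axis.

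Partner genes of the network were read from 6 lists. On the deposited scale their counts of calls stand beside 4.47% of all tested loci higher and 35.0% lower in D135 against D105. In D135 against D85 these shares were 6.90% and 39.7%. With median-of-ratios scaling the shares were 10.9% and 6.94% against D105, and 15.3% and 12.5% against D85. With quantile normalization they were 7.53% and 8.19%, and 12.2% and 14.8%. Between D85 and D105, 0 genes of any of these lists were called by limma. Among 16 anchors of the desmin network, 14 were tested. Of these, 3 were higher and 4 lower at D135 than at D105, and 4 were higher and 5 lower than at D85, with median log2 changes of -0.18 and -0.03. The lower counts are near the shares over all loci. With median-of-ratios scaling the counts for D135 against D105 were 5 higher and 0 lower, beside 10.9% and 6.94% of all loci. Besides the genes described here, EPPK1 and TLN1 were lower at D135 than on both earlier days on the deposited scale. DST was higher and VCL lower than at D85. These 4 were named after their values were seen. EPPK1, TLN1 and VCL lost the call against D85 with quantile normalization, which left 2 of the 14 anchors lower. EPPK1 and TLN1 lost the call against D105 with median-of-ratios scaling. TLN1 turned from -0.30 to 0.16 against D85 with median-of-ratios scaling and was not called there. ACTN2, the alpha-actinin of the Z-disc, rose from 255 ± 35.0 to 668 ± 20.1 FPKM (SD, n = 3) between D105 and D135 (log2 change 1.39, limma adjusted p = 0.000931). NEB, nebulin, which runs along thin filaments and binds desmin at the Z-disc, rose from 328 to 521 FPKM (0.67, limma adjusted p = 0.00681), a call lost with quantile normalization (0.0550). DTNA, alpha-dystrobrevin, the membrane partner of syncoilin, rose from 6.25 FPKM at D85 to 14.0 at D135 (1.04, limma adjusted p = 0.00125) in the comparison in which SYNC fell on the deposited scale. SPTAN1, the non-erythroid alpha-spectrin, fell from 48.9 to 22.3 FPKM between D85 and D135 (-1.10, limma adjusted p = 0.000268). MACF1, a spectraplakin that links actin to microtubules, fell from 50.4 to 20.5 FPKM (-1.25, limma adjusted p = 0.000455). Both kept that call under the other scalings, but against D105 the calls of SPTAN1 and MACF1 were lost with median-of-ratios scaling (0.0537 and 0.338). DMD, dystrophin, is spread over 37 loci, and the highest of them was called with median-of-ratios scaling alone (0.41 against D85, limma adjusted p = 0.0276).

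Among 11 desmin chaperones and turnover genes, 0 were higher and 3 lower at D135 than at D105, and 2 were higher and 2 lower than at D85. Median-of-ratios scaling left 10 of them tested. The counts were then 2 higher and 0 lower against D105, beside 10.9% and 6.94% of all loci. Against D85 they were 4 higher and 1 lower, beside 15.3% and 12.5%. The added higher genes were CRYAB, a small heat shock protein that binds desmin, and BAG3, a co-chaperone of the Z-disc, both named after their values were seen. Against D85 they were 1.17 and 1.03 under that scaling (limma adjusted p = 0.0194 and 0.0118) and 0.71 and 0.62 on the deposited scale (0.0682 and 0.0635). The small heat shock proteins HSPB8 and HSPB1 were the genes higher on the deposited scale. HSPB8 rose from 17.5 to 39.6 FPKM between D85 and D135 (1.24, limma adjusted p = 0.0221) and HSPB1 from 44.8 to 67.9 FPKM (0.60, limma adjusted p = 0.0239), and both calls held under each scaling. CAPN1, the protease calpain 1, fell from 20.5 to 10.7 FPKM between D85 and D135 (-0.88, limma adjusted p = 0.00120), also under each scaling. VCP, an ATPase that extracts proteins for degradation, fell from 36.0 to 29.3 FPKM (-0.29, limma adjusted p = 0.0216), less than the median locus, and with median-of-ratios scaling it was 0.17 and not called. TRIM32, a ubiquitin ligase that acts on desmin, was the third lower gene against D105 at levels near 1 FPKM (-0.30, limma adjusted p = 0.0429), and it was -0.01 with quantile normalization.

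Of 15 genes for inner nuclear membrane and lamin-binding proteins, all tested, 2 were higher and 6 lower at D135 than at D105, and 1 was higher and 8 lower than at D85. The median log2 changes were -0.38 and -0.52, and 6 of 15 lower is near the 35.0% of all loci. With median-of-ratios scaling 2 were higher and 0 lower against D105, and 1 higher and 2 lower against D85, where 12.5% of all loci were lower. TMPO, which encodes the lamina-associated polypeptides LAP2, fell from 16.6 to 7.37 FPKM between D85 and D135 (-1.06, limma adjusted p = 0.00111). TOR1A, torsin A of the nuclear envelope lumen, fell from 7.21 to 2.93 FPKM (-1.08, limma adjusted p = 0.00329). These 2 were the lower calls that held against D85 with median-of-ratios scaling, at -0.63 and -0.70. TMEM38A, a cation channel of the muscle sarcoplasmic reticulum and nuclear envelope, rose from 29.9 to 55.4 FPKM (0.87, limma adjusted p = 0.00129) under each scaling. LEMD2, a LEM-domain protein of the inner membrane, fell from 7.71 to 4.57 FPKM (-0.67, limma adjusted p = 0.0477), which no other scaling called. BANF1, which bridges DNA, LEM-domain proteins and lamins, was higher at D135 than at D105 through 2 low D105 libraries. It held 4.65, 31.1 and 3.94 FPKM at D105 against 31.97 to 36.5 at D85 and 33.6 to 43.7 at D135 (2.04, limma adjusted p = 0.0335, and 0.0543 with quantile normalization).

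The LINC complex couples lamins to the cytoskeleton, with SUN proteins in the inner and nesprins in the outer nuclear membrane. Of its 5 genes tested, 0 were higher and 4 lower at D135 than at D85, beside 6.90% and 39.7% of all loci. SUN1 fell from 11.6 to 5.61 FPKM (-0.91, limma adjusted p = 0.00567). The nesprin genes SYNE1, SYNE3 and SYNE2 changed by -0.74, -0.64 and -0.34, with limma adjusted p of 0.00412, 0.0124 and 0.0280. SUN2, named after its values were seen, stood at 15.2 and 14.4 FPKM and was not called. With median-of-ratios scaling 0 of the 5 were lower, beside 12.5% of all loci. SYNE2 then turned to 0.11 and SUN2 was higher (0.38, limma adjusted p = 0.0496). With quantile normalization SYNE1 alone was lower (limma adjusted p = 0.0179). Against D105, 3 were lower on the deposited scale (SYNE1, SYNE2 and SYNE3), and 0 were with either other scaling. Of 5 lamin-processing genes, RCE1, a CAAX protease, was lower at D135 than at D85, at 2.57 against 4.43 FPKM (-0.61, limma adjusted p = 0.00524). That call too was lost with median-of-ratios scaling (0.195). The other 4, named after their values were seen (FNTA, FNTB, ICMT and ZMPSTE24), were not called.

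The loci with the most similar pattern were sought among 5534 tested loci with a symbol and a mean of at least 5 FPKM, by Pearson r of log2(FPKM + 1) over the 9 libraries. This is a description, since the libraries share their days and any gene that differs between days gives a high r. LMNB1 was most like ATAD2 (r = 0.996), DBN1 (0.995) and MCM10 (0.995), and ATAD2 stood at 12.2, 9.83 and 3.26 FPKM by day. NES was most like ADPRM (0.985), TLE3 (0.979) and GTF2B (0.979). LMNA was most like TDP2 (0.960), LRP1 (0.951) and FKBP9 (0.951). For DES the closest were NEDD8 (0.914), ZFAND6 (0.891) and COQ9 (0.890), and for VIM they were NEK7 (0.900), CITED2 (0.897) and SMAD1 (0.895).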

How the data were processed

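Total RNA from 9 libraries was sequenced. The authors deposited FPKM values, with 1 column for each library per the file headers. Cutadapt, Bowtie2 and TopHat2 were used, per the submitters' processing notes. Not given in the sources used here are their versions, the assembler, the counting and the build, so coordinates are left out. The design text names a pair of Illumina HiSeq models without assigning libraries to them, and a batch by instrument could not be tested.

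Of 22605 loci, the 13086 that reached 1 FPKM in 3 or more libraries entered the test, on log2(FPKM + 1), by limma 3.58.1 under R 4.3.3 (all 9 libraries, eBayes with a trend, two-sided, Benjamini-Hochberg over all tested loci, threshold 0.05). Ratios were tested by exact permutation of libraries. The members, the 6 partner and 11 marker lists (117 of 122 entries found) and the tests were chosen with earlier results of these data known. PLEC was matched by gene number in a RefSeq table of the ARS-UI_Ramb_v3.0 assembly. Besides the 9 genes, the rule named up to 4 called genes with the largest change per partner list and comparison (or the 2 highest), and the 3 most similar loci for each of DES, VIM, NES, LMNA and LMNB1. On data simulated for D135 against D105 (13086 loci), limma called 79 of 100 loci changed by a log2 of 1 and 90 of 100 changed by 2. Alternatives were the pseudocount, the filter, the scaling, the variance model, the libraries fitted, summed loci, a replicate block and each library left out. Python 3.11.15, pandas 2.3.3, numpy 2.4.6 and matplotlib 3.10.9 served for the other statistics and the plots.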

Additional observations from a re-analysis of the deposited data

How the results depend on the processing

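The counts called among the 9 genes were within 1.5 times of those reported in each comparison and alternative, except that over the 3 days at once 3 of 9 genes were called without D135 replicate 2 or without D135 replicate 3, in place of 5. With a library left out, the counts ran from 0 to 0 in D105 against D85, from 2 to 4 in D135 against D105, from 5 to 6 in D135 against D85 and from 3 to 5 over all days. Replicate numbers do not pair the libraries: the deviations of 9 same-number pairs correlated at -0.0659 to 0.0605, and 3 of 18 were best matched by their own number. With the replicate block the counts were 0, 3, 6 and 5, as without it. The DES to VIM ratio across days gave an exact p of 0.0278 with labels permuted within a replicate number, against 0.107, and 0.0679 to 0.336 with a library left out. The LMNA to LMNB1 ratio gave 0.0278 with that block and 0.00357 to 0.0107 with a library left out. An exact p of 0.0278 is the smallest that the 216 permutations within a replicate number can give, so the block cannot rank the 2 ratios. Among the 9 genes, directions that reversed belonged to differences that were not called with all libraries on the deposited scale. In D105 against D85 they were DES (-0.05, -0.16 and -0.32, within -0.32 to 0.22 with a library left out) and LMNA (-0.06 and -0.080, within -0.080 to 0.075). In D135 against D105, SYNC became 0.21 and LMNA 0.22 with median-of-ratios scaling, and 0.12 and 0.073 with quantile normalization. In D135 against D85, LMNA became 0.24 and 0.11 under those scalings. VIM became 0.35 with median-of-ratios scaling, 0.20 without D85 replicate 2 and 0.03 without D135 replicate 1, within -0.41 to 0.20 with a library left out. Partner lists moved more with median-of-ratios scaling. In D135 against D85 the called LINC genes went from 4 lower to 1 higher. The nuclear membrane list went from 1 higher and 8 lower to 1 and 2. Over all loci the shares went from 6.90% higher and 39.7% lower to 15.3% and 12.5%. Some called partners then changed sign, among them VCP (-0.29 to 0.17) and TLN1 (-0.34 to 0.11 against D105). The causes were not tested. Depth in reads is unknown, and 3 libraries a day limit the precision of each difference.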

Other observations

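Other intermediate filament genes had low values. Of 15 keratin, neurofilament, glial and lens filament genes 14 were found, and 3 of them reached the filter (KRT10, KRT18 and KRT19), with 0 called by limma in any comparison of days on the deposited scale. KRT19 had means of 1.32 ± 0.119, 1.77 ± 0.574 and 1.23 ± 0.873 FPKM at D85, D105 and D135 (SD, n = 3). KRT8 stood at 0.0441, 0.0835 and 0 FPKM in the D85 libraries, at 0.632, 0.834 and 0.130 at D105 and at 4.71, 0.838 and 1.79 at D135, and was not tested on the deposited scale because too few libraries reached 1 FPKM. With median-of-ratios scaling KRT8 passed the filter in place of KRT18, through its D135 libraries alone. It was then higher at D135 than at D85 (log2 change 1.76, limma adjusted p = 0.0113), the single call of this list. Because the filter let KRT8 in by its high day, this call is no independent evidence of a rise. The neurofilament genes NEFL and NEFM had means of 0.441 and 0.432 FPKM at D85, 0.145 and 0.116 at D105 and 0.0375 and 0.0249 at D135, and were not tested either. Both were lower in each D135 library, NEFL at 0.0620 or less and NEFM at 0.0503 or less, than in any other library. All these values are near 0, and D105 replicate 3 held 0.0735 FPKM of NEFL and 0.0596 of NEFM. Markers of Schwann cells and nerve summed to 10.2 to 16.6 FPKM at D85, 20.5 to 33.1 at D105 and 20.9 to 47.5 at D135, with SOX10 and CDH19 under 1 FPKM by the mean.

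Endothelial markers (5 of 6 found) summed to 130 to 153 FPKM at D85, 189 to 205 at D105 and 136 to 171 at D135. Smooth muscle and pericyte markers summed to 106 to 130, 90.3 to 135 and 77.0 to 99.4. Of these 5, limma called 1 higher and 2 lower in D135 against D85, beside 6.90% and 39.7% of all loci. RGS5 rose from 3.11 FPKM at D85 to 17.3 at D105 and 30.7 at D135. ACTA2 fell from 73.6 FPKM at D85 to 22.8 at D135, and CSPG4 from 14.3 to 6.84. These genes were named after their values were seen. Leukocyte markers summed to 12.4 to 21.3, 13.3 to 22.1 and 11.3 to 13.8 FPKM, with PTPRC and CD3E under 1. Adipocyte markers summed to 0.556 to 4.54, 1.91 to 27.1 and 1.29 to 18.3 FPKM. The single erythroid marker found, ALAS2, stood between 1.27 and 5.61 FPKM.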
